A study of Mus musculus with 6 samples.

Results

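Marker genes of the liver's other cell types were examined in ATAC-seq data of sorted hepatocyte nuclei, as a check of how pure the sort was. ATAC-seq uses the Tn5 transposase to cut and tag open chromatin, so a peak marks accessible DNA. The genes are known markers of liver cell types: 35 in all, of which 11 mark sinusoidal and other endothelial cells, 9 mark stellate cells, fibroblasts and smooth muscle, 8 mark Kupffer cells and other macrophages, 6 mark leukocytes and 1 marks red blood cells. Their members are the merged peak regions whose nearest protein-coding gene, within 50 kb, is a marker gene. This gave 135 of 109853 regions, at 28 of the 35 genes. Of the 135 regions, 54 had a peak in all 6 libraries and could be compared between groups.

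All nuclei came from livers of male mice carrying floxed alleles of 2 genes, Ncor1, which encodes the nuclear receptor corepressor NCOR1, and another gene. The 3 control libraries came from mice given an adeno-associated virus (AAV) with eGFP, and the 3 double knockout (dKO) libraries from mice given AAV-Cre. Livers were taken 5 days after the virus at zeitgeber time 10, that is 10 h after lights on, and flow cytometry sorted the nuclei that carry HNF4a, a transcription factor of hepatocytes. The promoter that drives the virus's gene, and whether each library is its own animal, are not stated in the labels, so p-values measure the spread between libraries, which may be technical.

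Hepatocytes make up most of the liver's mass and share it with cells that line and patrol the sinusoids. Sinusoidal endothelial cells form a sieve-like vessel wall and clear waste through the scavenger receptors stabilin-1 and stabilin-2. Stellate cells store retinyl esters and make collagen when activated, and Kupffer cells are the resident macrophages. In a cell that uses a lineage gene, its start site and enhancers are usually open, and in another cell type they are mostly closed.

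The peak lists held 68316 to 84614 peaks per library. Values are normalized tag counts, a signal the authors scaled to library depth, and the lowest called value in a library was 2.78 to 3.58. If the smallest step between values is 1 tag, the weakest peaks hold 56 to 59 tags and the libraries differ in depth by up to 1.27 times. Peaks were 108 bp wide in control 1, dKO 1 and dKO 2, and 166 or 172 bp wide in control 2, control 3 and dKO 3. This width is treated as a batch with 2 classes, and the fold change within each class is given beside the pooled one for each region described with its test. The 108 bp class has control 1 as its only control, and the wider class has dKO 3 as its only dKO library. The within-class values are therefore given without an SE, and that of the wider class cannot be told apart from dKO 3 itself. Absence of a peak does not show closed chromatin, since the lowest fold over the local surroundings in each list was 4 and a broadly open stretch can miss it.

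The start sites of the marker genes were mostly without a peak, while those of hepatocyte genes mostly had one. RefSeq start-site windows, 250 bases before to 50 after the start, were found for 27 of the 35 markers, and where a gene had several starts the window with a peak in most libraries was used. A peak lay in the window in at least 1 library at 5 of these 27 genes (18.5%) and in all 6 libraries at 2 (7.41%). Among 23 genes of a hepatocyte reference list, such as those of albumin and the apolipoproteins, 19 had a peak (82.6%) and 14 had it in all 6 (60.9%). Over all 17274 protein-coding genes with a window the shares were 54.8% and 39.2%. The 5 markers with a peak were Reln, Lrat, Tek, Eng and Kdr. All 6 macrophage windows, all 6 leukocyte windows and the Hbb-bt window had no peak in any library. In nuclei pooled from many cells, fewer cells of a type and less open DNA per cell cannot be told apart.

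**Figure D1:**
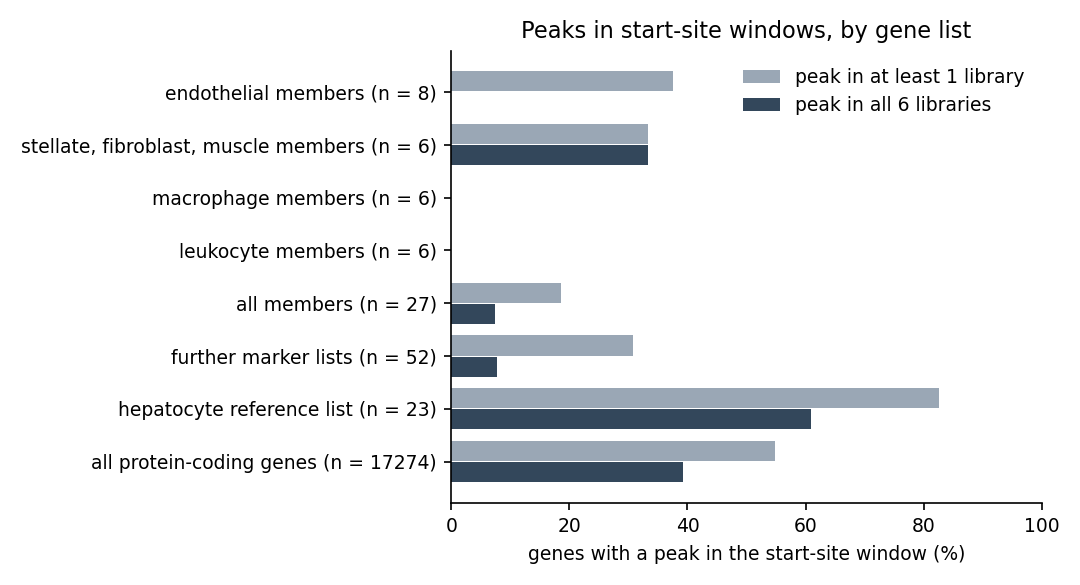
Share of genes (%) with a peak in the start-site window, for the members by cell class, the further marker lists pooled, the hepatocyte reference list and all protein-coding genes. Light bars count genes with a peak in at least 1 library and dark bars those with a peak in all 6. The bars of macrophage and leukocyte members are at 0, those of the pooled further lists reach 30.8% and 7.69%, and the hepatocyte bars reach 82.6% and 60.9%.

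The sequences before the start are shown for the 2 genes whose windows were open in every library, Reln and Lrat, and for 2 macrophage genes with no peak there, Clec4f and Lyz2. They are the 250 bases upstream of the start from RefSeq (build GRCm38.p6, minus strand), with CG dinucleotides in capitals. The coordinates are chr5:22344706-22344955 for Reln, chr3:82903975-82904224 for Lrat, chr6:83656117-83656366 for Clec4f and chr10:117282273-117282522 for Lyz2.
Reln: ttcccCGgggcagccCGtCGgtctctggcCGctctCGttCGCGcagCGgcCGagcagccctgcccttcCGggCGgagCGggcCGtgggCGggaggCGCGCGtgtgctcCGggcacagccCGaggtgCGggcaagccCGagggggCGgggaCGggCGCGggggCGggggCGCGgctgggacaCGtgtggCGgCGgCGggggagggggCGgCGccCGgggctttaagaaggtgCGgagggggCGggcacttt
Lrat: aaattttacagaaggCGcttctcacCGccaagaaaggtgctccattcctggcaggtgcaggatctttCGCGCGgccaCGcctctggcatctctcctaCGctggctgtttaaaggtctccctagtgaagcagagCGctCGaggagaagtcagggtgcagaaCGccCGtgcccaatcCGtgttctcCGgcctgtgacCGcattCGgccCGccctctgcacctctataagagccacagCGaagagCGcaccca
Clec4f: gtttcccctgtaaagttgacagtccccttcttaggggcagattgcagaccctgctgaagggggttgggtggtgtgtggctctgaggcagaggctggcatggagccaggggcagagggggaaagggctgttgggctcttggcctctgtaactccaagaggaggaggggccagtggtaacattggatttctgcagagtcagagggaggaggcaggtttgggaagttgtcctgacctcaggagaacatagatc
Lyz2: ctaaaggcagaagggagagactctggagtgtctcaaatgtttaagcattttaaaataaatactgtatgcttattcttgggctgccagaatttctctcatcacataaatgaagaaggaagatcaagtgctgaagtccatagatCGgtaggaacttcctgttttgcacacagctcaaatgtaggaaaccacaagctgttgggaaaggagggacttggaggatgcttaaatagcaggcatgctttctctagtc

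The printed sequences differ in CG content. The 4 stretches hold 37, 18, 0 and 1 CG dinucleotides, in the order printed. Reln, which encodes the secreted protein reelin and marks quiescent stellate cells, has 47 in its whole 300-base window, and Lrat, which encodes the enzyme that makes retinyl esters, has 21. At least 10 CG dinucleotides were found in 58.7% of all windows and in 6 of the 27 marker windows. Of those 6, 3 (Reln, Lrat and Kdr) had a peak in some library. The other 3, Flt1, Des and Col1a2, had none, although 81.2% of all windows with at least 10 had one. Of the 21 marker windows with fewer than 10, 2 (Eng and Tek) had a peak (9.52%), against 17.2% of all such windows. Both are among the 6 such windows of endothelial members (33.3%), and the other classes of members had none. On the further marker lists described below, 10 of 44 such windows had a peak (22.7%). By list these were 4 of 6 endothelial, 2 of 6 stellate, 2 of 10 macrophage, 1 of 15 leukocyte and 1 of 7 erythroid windows. The hepatocyte reference genes had peaks in 18 of 21 windows with fewer than 10.

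At the Reln start, the region 235 bp upstream was the strongest of the stellate group. It read 16.7, 26.8 and 22.4 normalized tags in controls 1 to 3 and 13.6, 15.5 and 22.1 in dKO 1 to 3. The groups overlapped, and the log2 fold change was -0.29 (SE 0.18, limma adjusted p = 0.276; -0.06 with 108 bp peaks and -0.24 with wider ones). A neighbouring region 197 bp inside the gene had 10.8 in control 1, 21.8 in control 3, 7.58, 10.5 and 21.7 in the dKO libraries, and no peak in control 2. The Lrat start-site region was weaker, with 6.55, 7.9 and 8.52 in controls and 5.01, 8.21 and 10.6 in dKO. Both genes thus had a start-site peak in every library, at levels that overlapped between groups.

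Peaks in the start-site windows of endothelial members were under 7 normalized tags, and none was present in all 6 libraries. Tek, the angiopoietin receptor gene, had 5.27, 3.59 and 3.92 in controls, 4.39 in dKO 2, 6.14 in dKO 3 and no peak in dKO 1. Eng, which encodes the TGF-beta co-receptor endoglin, had 6.12 in control 1, 3.64 in control 2 and 4.25 in dKO 3. Kdr, the gene of VEGF receptor VEGFR2, had 6.14 in dKO 3 and no start-site peak elsewhere. Cdh5, which encodes VE-cadherin, is not among the 27 genes with a window. There a region that overlapped the gene span, with its midpoint 32 bp outside it, had a peak in every library. It read 5.38, 3.92 and 3.98 in controls and 4.26, 5.23 and 7.72 in dKO. In each of these 4 sets the level in dKO 3 was above those of the other dKO libraries that had a peak, where there were any. These values are not centred, and the median over all shared regions had the same order: 17.4 in dKO 3, against 15.6 in dKO 1 and 13.5 in dKO 2. The windows of Stab1, Stab2, Clec4g, Egfl7 and Flt1 had no peak.

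Across gene classes the markers were unevenly covered. The 11 endothelial genes held 95 regions, of which 37 were shared by all libraries, and every endothelial gene had at least 1 region. Stab2 alone held 24, Pecam1, the gene of the adhesion molecule CD31, held 14, and Flt1, the gene of VEGF receptor VEGFR1, held 12. The 9 stellate, fibroblast and muscle genes held 21 regions (11 shared), and Dcn, which encodes decorin, had none. The 8 macrophage genes held 11 regions, of which the 2 shared ones were both at Csf1r, the receptor gene for macrophage growth factor. The 6 leukocyte genes held 7 (4 shared). The red cell gene Hbb-bt, a beta-globin gene, had 1 region, with 3.67 in control 1 only.

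In all, 7 marker genes had no linked region: Dcn, Cd68, Timd4, Vsig4, Lyz2, Cd79a and Nkg7. Cd68 (a lysosomal protein of macrophages), Timd4 (a phosphatidylserine receptor), Vsig4 (a complement receptor) and Lyz2 (lysozyme) belong to the macrophage class. Cd79a is part of the B cell receptor, and Nkg7 is a cytotoxic granule gene. None of the 7 gene spans was overlapped by any region. The nearest region lay 113671 bp from Vsig4, 103390 bp from Dcn, 75875 bp from Timd4 and 38290 bp from Lyz2. It lay 1184 bp from Cd79a, 1418 bp from Cd68 and 5212 bp from Nkg7, where it was linked to the neighbouring genes Arhgef1, Mpdu1 and Cldnd2. Of the macrophage genes with regions, Clec4f, the Kupffer cell lectin gene, had 1 region in control 1 (3.83) and another in dKO 3 (4.68), both over 10 kb from the gene. Adgre1, which encodes F4/80, had 1 region, with 3.89 in control 1 and 5.22 in dKO 3, 14017 bp away. The scavenger receptor gene Marco had 3 regions, none inside the gene, with no value above 5.89.

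Marker regions had a lower median level and a smaller shared proportion than regions at large. Of the 135, 40.0% had a peak in all 6 libraries, against 47.1% of all regions, and 25.2% had a peak in 1 library only, against 16.6%. The hepatocyte reference list had a still smaller shared proportion, 34.1%, with 18.8% in 1 library only. The median level of the shared marker regions was 11.8 normalized tags, against 15.9 for all shared regions and 30.0 for those of the hepatocyte reference list. A mean of at least 20 was reached by 6 of the 54 (11.1%), 39.7% of all shared regions and 66.2% of the hepatocyte ones. Peaks had 1 width within each library, except for 1 peak in control 1 and 1 in control 3, so these levels are per nearly equal length. The 81 marker regions missing from some library had a median of 5.1, and 75 of them lay under 10. These differences are descriptions and were not tested. Position differed as well: 39.3% of marker regions lay 1 to 50 kb from their gene, against 26.0% of all linked regions and 49.0% of those of the hepatocyte reference list.

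The number of marker regions with a peak did not separate the groups. It was 100, 88 and 73 in controls 1 to 3 and 84, 87 and 101 in dKO 1 to 3. As a share of the 135 regions, dKO 3 had 74.8% and control 3 had 54.1%, while the same libraries held 65.0% and 62.2% of all regions. In dKO 1 the order was the reverse, with 62.2% of marker regions against 76.6% of all regions. A further list of 15 endothelial genes, with 80 regions, gave 88.8%, 71.2% and 57.5% in controls and 61.3%, 75.0% and 85.0% in dKO. The endothelial members gave 76.8%, 62.1% and 47.4% in controls and 63.2%, 66.3% and 74.7% in dKO. On both endothelial lists control 1 and dKO 3 had the highest shares and control 3 the lowest. Over all regions the shares were 75.5%, 65.9% and 62.2% in controls 1 to 3 and 76.6%, 73.9% and 65.0% in dKO 1 to 3. On the endothelial members control 1 thus lay near its share of all regions, while dKO 3 lay above its own. The further lists of other cell types differed in this. dKO 3 was highest on a further macrophage list (75.6%) but lowest on a further leukocyte list (57.6%, against 90.9% in dKO 1 and 75.8% in dKO 2). On a further stellate list it was the lowest dKO library (60.9%, against 69.6% in dKO 1 and in dKO 2). The hepatocyte reference list gave 82.2%, 53.4% and 46.2% in controls 1 to 3 and 72.6%, 69.2% and 51.4% in dKO 1 to 3. Its highest shares were those of the libraries with 108 bp peaks, control 1, dKO 1 and dKO 2, which also had the highest shares of all regions. Regions seen in 1 library only made up 7.92% of the marker regions with a peak in dKO 3 and 1.73% of all its regions. In control 1 these shares were 13.0% and 6.29%. The values were 3.95 to 6.14 in dKO 3 and 3.41 to 14.7 in control 1. The weak endothelial start-site peaks above are among the regions counted here, so they are not separate evidence of these library differences. The part of these differences in the results below was not tested.

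**Figure D2:**
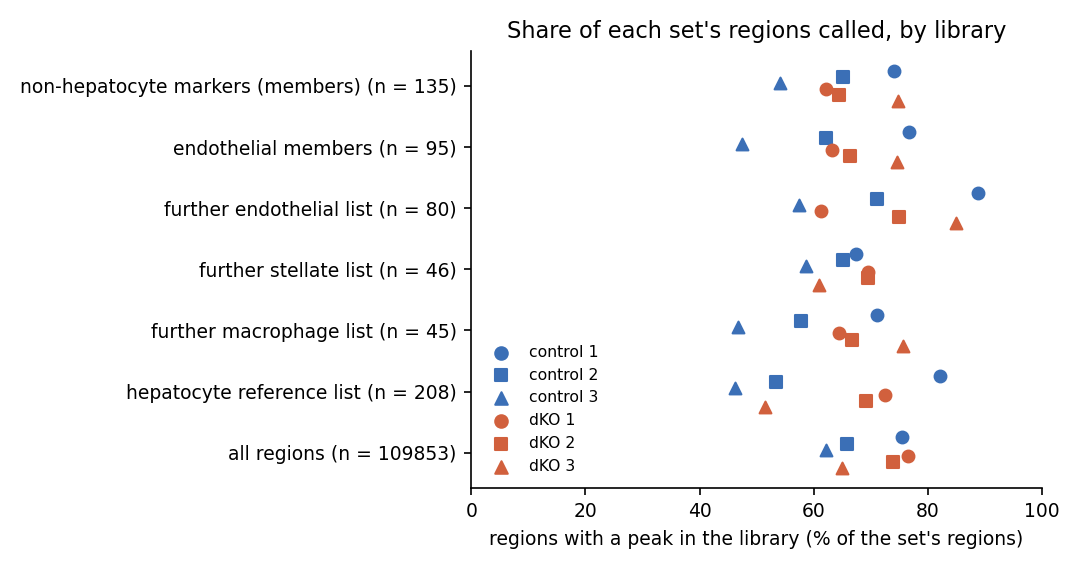
Share of each set's regions (%) that have a peak in each library, with controls in blue and dKO in orange and the replicate number given by the marker shape. For endothelial genes control 1 and dKO 3 are highest and control 3 is lowest, and the 2 groups overlap in every set shown.

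The next question was whether the shared marker regions differed between dKO and control. At an adjusted p under 0.05 (limma, over all 51749 shared regions), 9 of the 54 were called. Of these, 3 rose (Flt1, Pecam1 and Des) and 6 fell (Stab1, Csf1r and 4 at Stab2). Over all shared regions 8.19% were called higher and 11.6% lower, 19.8% in all. The 9 of 54 thus lie near that background. The median log2 fold change was 0.04 for marker regions and -0.02 for all. In 9 of the 54 (16.7%) the groups did not overlap, against 28.4% of all shared regions. The calls depended on scaling and on single libraries: 1 region was called higher and 7 lower without centring, 1 and 5 under quantile normalization, and 1 and 6 under cyclic loess. The lower calls dropped to 1 without dKO 1, 1 without dKO 2, 2 without control 1 and 3 without control 3. The higher calls dropped to 1 without control 2 or dKO 1. Without dKO 2 limma called 0 higher, with 3 at an unadjusted p under 0.05.

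**Figure D3:**
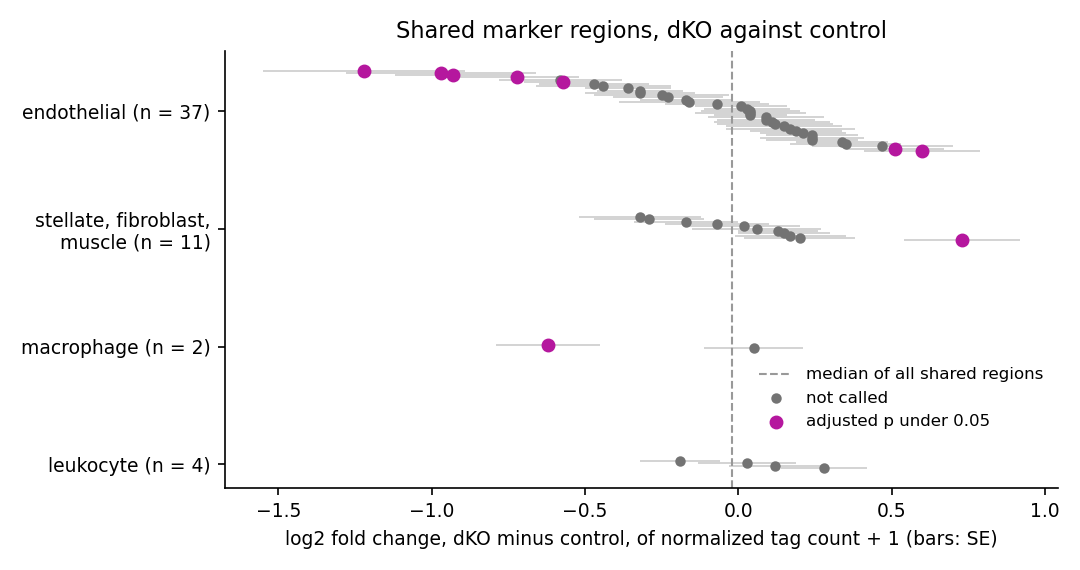
Log2 fold change (dKO minus control, of the normalized tag count + 1) of the 54 shared marker regions by cell class, with SE bars, and the median of all shared regions as a dashed line. The 9 called regions are in purple: 7 endothelial, 1 stellate and 1 macrophage.

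Both stabilin genes had regions that fell. Stab1, the stabilin-1 gene, had a single region, inside the gene 8221 bp from its start (chromosome 14, 31160306 to 31160535). It read 20.3, 18.6 and 17.9 in controls and 7.17, 7.06 and 14.2 in dKO, so every dKO value lay below every control, with dKO 3 the closest. The log2 fold change was -0.93 (SE 0.19, limma adjusted p = 0.00572). Among libraries with 108 bp peaks it was -1.26, and among the wider ones -0.44. The call held in each alternative that tested the region, each library left out included.

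Stab2, the stabilin-2 gene, had 24 regions, 20 of them inside the gene, and 12 shared. Of the 12, 4 fell and the other 8 were not called. The strongest lies 84113 bp from the start (chromosome 10, 86923710 to 86923948). It read 40.3, 28.0 and 75.7 in controls, and 11.8, 12.5 and 35.7 in dKO. The dKO 3 value was above that of control 2, so the groups overlapped. The log2 fold change was -1.22 (SE 0.33, limma adjusted p = 0.0203). The values by width class were -1.52 (108 bp) and -0.46 (wider). The call was lost without control 1 (adjusted p = 0.0578), control 3 (0.0656), dKO 1 (0.111) or dKO 2 (0.112).

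A Stab2 region near the far end of the gene (86847045 to 86847219) went from 18.0, 15.1 and 17.4 in controls to 6.76, 8.26 and 14.3 in dKO, with no overlap. Its log2 fold change was -0.72 (SE 0.20, limma adjusted p = 0.0211; -1.03 and -0.27 within the 2 width classes, the 108 bp libraries named first here and below). The call was lost without control 1 (adjusted p = 0.0704), dKO 1 (0.108) or dKO 2 (0.0862). The region at 86872642 to 86872878 had 21.4, 12.3 and 24.5 against 4.37, 10.1 and 13.8, which overlap. Its log2 fold change was -0.97 (SE 0.31, limma adjusted p = 0.0405; -1.40 and -0.41). That call was lost without control 1 (adjusted p = 0.134), control 3 (0.119), dKO 1 (0.175) or dKO 2 (0.0688), and under 4 other alternatives. Outside the gene, 24928 bp away, the region at 87032860 to 87033072 had 26.2, 29.1 and 26.8 against 15.6, 14.8 and 22.4, with no overlap. It changed by -0.57 (SE 0.13, limma adjusted p = 0.0109; -0.62 and -0.40) and lost its call without dKO 1 (0.066) or dKO 2 (0.0675). A further Stab2 region, 118307 bp from the start, was seen in every control (9.05, 7.04 and 13.1) but in no dKO library.

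Around the start of Stab2 peaks were weak. The nearest region inside the gene was 15024 bp from the start, with 4.04 in control 1, 3.78 in control 2 and 6.08 in dKO 3. The nearest upstream region, 4310 bp away, had 3.87 in dKO 2 and 4.31 in dKO 3. Shared regions that were not called had log2 fold changes from -0.47 to 0.24, of which 6 were negative (-0.47 to -0.16) and 2 positive. In 1 of the 6, at 86886518 to 86886757, the groups did not overlap, with 16.4, 16.7 and 17.9 in controls and 12.3, 11.0 and 14.2 in dKO (-0.36, limma adjusted p = 0.0846; -0.33 and -0.36). The positive one 60187 bp from the start had 16.9, 13.0 and 17.2 in controls and 18.6, 16.3 and 18.7 in dKO (0.24, limma adjusted p = 0.266; 0.17 and 0.21). The region 17035 bp outside the gene had 17.1, 16.1 and 17.0 against 17.0, 15.7 and 16.3 (0.03, limma adjusted p = 0.909; 0.07 and -0.12).

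**Figure D4:**
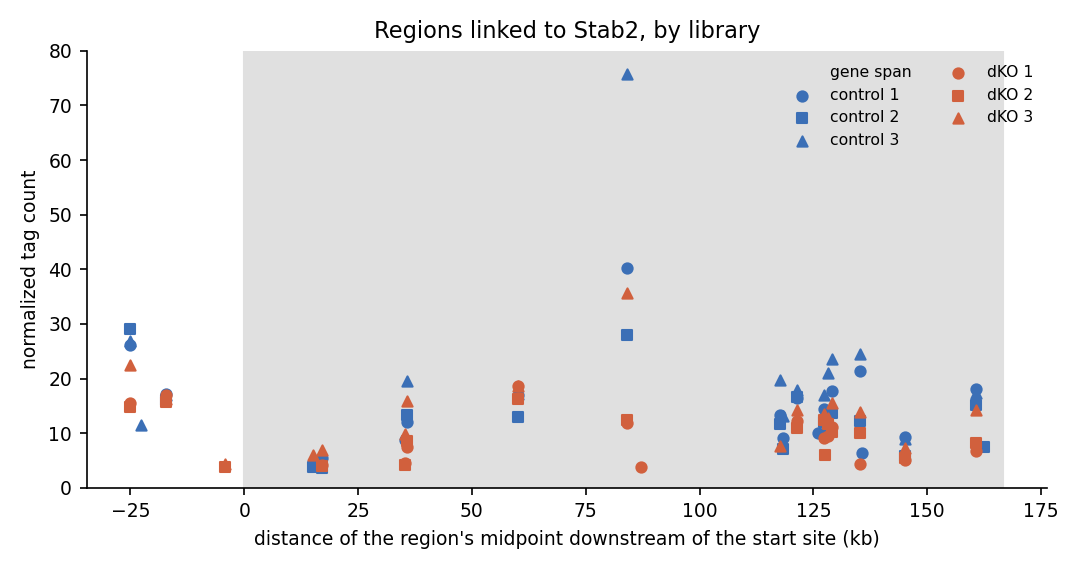
Normalized tag count of each region linked to Stab2 in each library, against the distance of its midpoint downstream of the start site (kb), with the gene span shaded. The highest values, up to 75.7 in control 3, lie 84113 bp inside the gene, and the region nearest to the start inside the gene, 15024 bp from it, reaches 6.08.

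A region rose at each of 2 other endothelial genes, Flt1 and Pecam1. At Flt1, a region 770 bp outside the gene (chromosome 5, 147727110 to 147727307) had 8.25, 7.61 and 7.91 in controls and 11.5, 10.9 and 11.1 in dKO. All dKO values lay above all controls. The log2 fold change was 0.51 (SE 0.16, limma adjusted p = 0.0371; 0.53 and 0.37 within the width classes). The call was lost under every leave-out but that of dKO 3, with adjusted p of 0.0578 without control 1, 0.0956 without control 2, 0.093 without control 3, 0.116 without dKO 1 and 0.176 without dKO 2, and under 5 other alternatives (up to 0.11). Another Flt1 region, 215 bp inside the start, had a peak in all 3 dKO libraries (4.37, 5.23 and 6.99) and no control. A separate weak region 330 bp from the same start had a peak in control 1 only (4.1). Both lie outside the start-site window. The other 4 shared Flt1 regions were not called.

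At Pecam1, an intragenic region (chromosome 11, 106658097 to 106658317) had 7.82, 5.22 and 5.16 in controls and 7.46, 9.41 and 10.8 in dKO. The dKO 1 value lay within the controls. It rose by 0.60 (SE 0.19, limma adjusted p = 0.0395; 0.22 and 0.83). The call was lost without control 2 (adjusted p = 0.114), control 3 (0.137), dKO 2 (0.185) or dKO 3 (0.0715), and under 5 other alternatives (up to 0.0929). The other 6 shared Pecam1 regions were not called. Of these, the strongest, 13299 bp from the gene, had 19.1, 19.2 and 18.3 against 13.8, 12.6 and 16.6 (-0.32, limma adjusted p = 0.109; -0.37 and -0.26), with no overlap. A region 7745 bp from the gene had 6.41, 3.71 and 4.31 in dKO and no control peak.

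Several endothelial genes had well covered regions whose levels overlapped between groups. Lyve1, the gene of a hyaluronan receptor of lymphatic and sinusoidal endothelium, had a region 2025 bp from the gene with 41.0, 36.6 and 34.5 in controls and 37.9, 34.8 and 37.3 in dKO. This is among the highest levels of any marker region, and the next protein-coding gene, Rnf141, lies 4130 bp from it. Inside Lyve1, a region had 14.7, 11.7 and 13.5 in dKO and no peak in any control. It was the strongest of the 4 marker regions seen in all 3 dKO libraries and no control. The region most distant from Egfl7, a gene of a secreted endothelial protein, lies 31098 bp upstream and had 43.2, 40.9 and 26.7 against 38.2, 33.5 and 39.2. None of the 8 Egfl7 regions lay inside the gene.

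Kdr had a region 2814 bp inside the start with 18.5, 14.6 and 16.9 in controls and 14.4, 12.7 and 14.9 in dKO, which overlap. An Eng region deep inside the gene had 18.8, 12.3 and 11.5 against 24.2, 19.7 and 13.9, which also overlap (log2 fold change 0.47, limma adjusted p = 0.167; 0.34 and 0.11). Without dKO 3 that Eng region was called higher (0.76, limma adjusted p = 0.0168). Clec4g, a lectin gene of sinusoidal endothelium, had 1 shared region, with 12.5, 9.38 and 8.35 against 8.86, 9.41 and 14.2. Tek had no shared region. Of its 7, a region 13093 bp from the gene had 5.3, 4.44 and 5.89 in dKO and no control peak.

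Among stellate and muscle genes, Des was called. Des encodes the intermediate filament protein desmin. Its region 2924 bp outside the gene (chromosome 1, 75371406 to 75371600) had 8.52, 7.04 and 5.77 in controls and 12.8, 12.2 and 10.4 in dKO, all dKO values being above all controls. It rose by 0.73 (SE 0.19, limma adjusted p = 0.0179; 0.64 and 0.53), and lost its call without control 3 (0.0718), dKO 1 (0.0791) or dKO 2 (0.109). The next gene, Speg, a muscle kinase gene, lies 3794 bp from it. None of the 3 Des regions lay inside the gene, and its start window had no peak.

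The collagen genes had few regions. Col1a1 had 2 shared, of which that inside the gene had 8.89, 14.0 and 13.2 against 7.23, 7.63 and 12.5. Col3a1 had 1 shared region, with values from 3.95 to 5.89, and Col1a2 had 2 regions, both beyond the gene and neither shared. Pdgfrb, the PDGF receptor gene of stellate cells, had 1 shared region with 7.34, 5.65 and 8.02 against 5.13, 6.38 and 7.35. Acta2, which encodes smooth muscle actin, had 1 weak intragenic region of 4.04 to 4.92, absent from dKO 2. Reln also had a weak region deep inside the gene with 8.25, 3.45 and 3.98 in controls and no dKO peak. Besides Des, limma called 0 of the other 10 shared stellate and muscle regions (0 at an unadjusted p under 0.05).

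In the macrophage class, both shared regions lay inside Csf1r. At chromosome 18, 61110208 to 61110539, values were 13.0, 11.6 and 13.5 in controls and 7.93, 5.44 and 9.9 in dKO, with no overlap. It fell by 0.62 on the log2 scale (SE 0.17, limma adjusted p = 0.0201; -0.75 and -0.41 within the width classes). The call was lost without control 1 (adjusted p = 0.0526), control 3 (0.0572), dKO 1 (0.0616) or dKO 2 (0.129). The neighbouring region at 61108480 to 61108660 had 12.7, 14.8 and 13.0 against 12.1, 10.7 and 18.5 (0.05, limma adjusted p = 0.843; -0.01 and 0.29). The difference between these 2 adjacent regions was not tested.

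Leukocyte genes had regions only at a distance or at low level. The strongest lies 34205 bp from Ptprc, which encodes CD45, with 42.0, 37.0 and 49.5 in controls and 32.8, 32.3 and 42.6 in dKO, which overlap. The single Ptprc region inside the gene had 4.42, 3.4 and 5.29 in control 1, control 2 and dKO 3 and no peak elsewhere. A region 14545 bp from S100a9, a neutrophil calcium-binding protein gene, had 15.3, 14.7 and 16.6 against 18.5, 17.6 and 18.6, with no overlap (0.28, limma adjusted p = 0.173; 0.36 and 0.14). Its partner S100a8 had 1 region, 4667 bp away, with values of 4.34 to 5.27 in 5 libraries. Cd3e, a T cell receptor component gene, had 1 region, 13349 bp away, with 6.92, 5.98 and 6.28 against 5.89, 6.27 and 8.14. Of the 4 shared leukocyte regions limma called 0, and 0 had an unadjusted p under 0.05.

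Regions with a peak in all 3 libraries of 1 group and none of the other numbered 4 for dKO (Flt1, Lyve1, Pecam1 and Tek) and 2 for control (Stab2 and Reln), of 135. Over all 109853 regions these shares were 1.57% and 1.34%. The 4 dKO ones were all endothelial, as were 95 of the 135 marker regions, and 3 of them had values under 7.

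**Figure D5:**
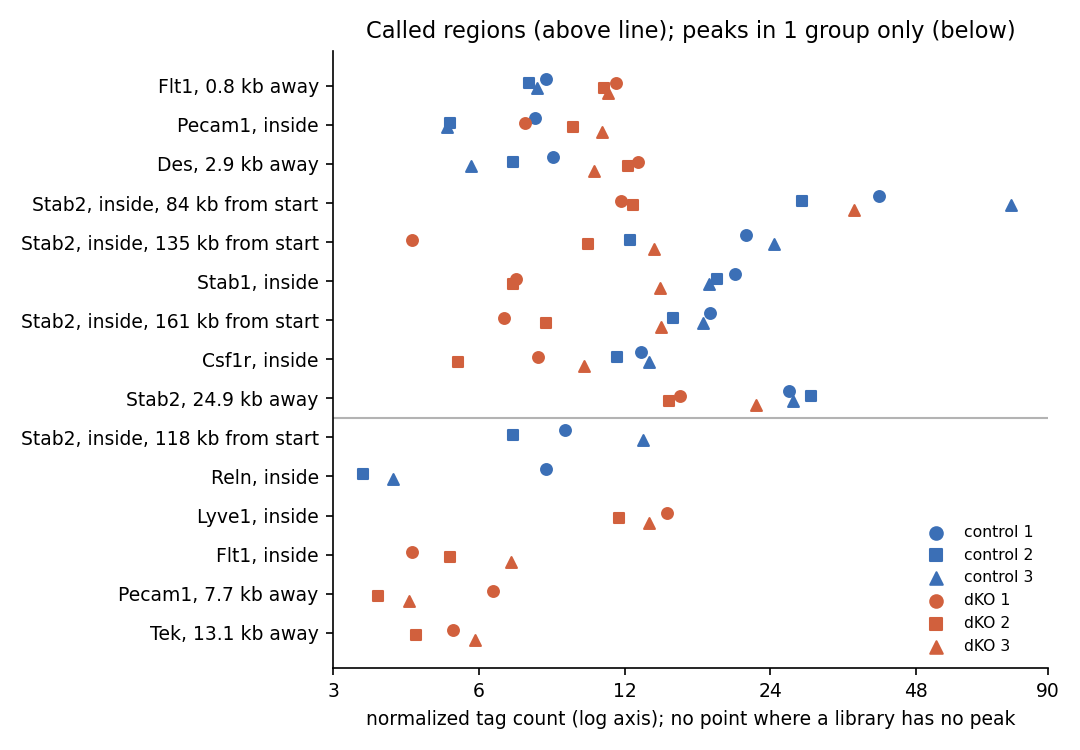
Normalized tag count (log axis) in each library of the 9 called marker regions (above the line) and of the 6 regions with peaks in all libraries of 1 group only (below), controls in blue and dKO in orange. At the regions that fell, dKO 3 is the dKO library nearest to the controls. The values are not centred, and dKO 3 also had the highest median over all shared regions (17.4, against 15.6 in dKO 1 and 13.5 in dKO 2).

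Further marker lists were read from the same test. Over 74 other genes of endothelial, stellate, macrophage, leukocyte and erythroid cells, 95 of 213 regions were shared, with 8 called higher, 8 called lower, 79 not called and a median log2 fold change of 0.02. These counts stand beside the 8.19% called higher and 11.6% called lower over all shared regions. The endothelial list had 2 up and 4 down of 36, the stellate list 1 and 2 of 20, the macrophage list 5 and 1 of 16, the leukocyte list 0 and 1 of 18 (0 and 5 at an unadjusted p under 0.05, limma) and the erythroid list 0 and 0 of 5 (0 and 0). For bile duct cells, limma called 1 of 22 higher and 0 lower (2 and 2 at an unadjusted p under 0.05). By the same count the hepatocyte reference list had 3 regions that rose and 29 that fell of 71, with a median of -0.34. Start-site windows of the further lists had a peak in at least 1 library at 16 of 52 genes (30.8%) and in all 6 at 4 (7.69%). A peak in at least 1 library was found at 5 of 7 further endothelial windows (71.4%), of which 2 had it in all 6. The shares were 4 of 10 for the further stellate list, 4 of 12 (33.3%) for the macrophage list, 2 of 16 (12.5%) for the leukocyte list and 1 of 7 for the erythroid list. The further macrophage and leukocyte windows thus held some peaks, while those of the members held none.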

How the data were processed

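ATAC-seq peak lists of 6 libraries, 3 control and 3 dKO, were analysed. The submitters' processing notes list mm10 and the tools HOMER 4.11, SAMtools 1.10, Picard and Trim Galore 0.6.4. No label or header states the aligner, read filters, cut-site shift or calling options. Per the file headers, each deposited list holds for every peak a normalized tag count (a depth-scaled signal), a clonal fold and a fold over local surroundings (ratios), a p-value, a score and the focus ratio, which is a fraction. The signal was analysed, and the score served as a filter in an alternative.

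Peaks on chromosomes 1 to 19 and X that shared at least 1 bp were merged, and a region took the highest normalized tag count of each library. Regions were linked by midpoint to whichever protein-coding gene span lay nearest, up to 50 kb away, in a RefSeq table of GRCm38.p6, the assembly that mm10 is made from, where all 35 symbols were found. Coordinates are as deposited. Exon, intron and UTR positions were not analysed here. Start-site windows came from a RefSeq table of that build. For a gene with several, the window with a peak in most libraries was taken, which favours open windows. The number of starts per gene was not compared between lists.

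Regions with peaks throughout were tested as log2(value + 1), centred on each library's median, in limma 3.58.1 (R 4.3.3, trend over the mean, group as the only term), with 2-sided p-values adjusted by Benjamini-Hochberg over all 51749 regions at a threshold of 0.05. Fold changes are dKO minus control on that scale, which understates changes of weak regions. An exact permutation test of 3 against 3 cannot go below p = 0.1. On simulated data with 200 changed regions among 51749, 94 of 100 changed by 1 on the log2 scale were called, 100 of 100 changed by 2, and 19 unchanged ones. The simulated noise was independent, with the same SD in every region and no effect of library or peak width. It checks the code and does not give the power or error rate in these data. Low values fell on a regular step, but values above 10 are rounded to more than 1 step, so tags were not recovered and no count model was used. The fit on regions with peaks in at least 3 libraries left missing values missing.

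Values in each library are given for the strongest region of a member with a shared region, if among the 10 strongest such regions or the strongest of its cell class, for every called region, and for regions with peaks in all libraries of 1 group and none of the other. Values of other members, and the start-site and printed sequence examples, illustrate ranges and were chosen after their values were seen. Alternatives changed the scaling, pseudocount, filters, merging, linking, model terms and libraries. Members and lists were chosen with earlier results of these data known. The other floxed gene is not reported here.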

Additional observations from a re-analysis of the deposited data

How the results depend on the processing

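Against 3 higher and 6 lower marker calls, 1 was called higher without centring, with quantile normalization, with cyclic loess and with the peak width class as a term. Peaks at or above the median score gave 1 higher and 1 lower of 12 tested. With a mean of at least 20, limma called 0 higher (1 at an unadjusted p under 0.05) and 2 lower of 6 tested. Without each library in turn, higher calls were 0 to 3 and lower calls 1 to 8. Over all shared regions, against 4240 higher and 5995 lower, there were 2562 higher without centring, 1963 and 1953 with a mean of at least 20, and 2488 and 2232 with peaks at or above the median score. Without each library they were 1236 to 5262 and 1410 to 8273. The level and score filters leave fewer regions to test. For the other settings the cause was not tested. The 9 called marker regions kept their direction in every alternative that tested them. Among uncalled regions, S100a9 was called higher with peaks at or above the median score (0.40, limma adjusted p = 0.0401).

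Marker regions with a peak numbered 87.0 ± 13.5 in control and 90.7 ± 9.07 in dKO libraries (mean ± SD, n = 3 each). They numbered 27.7 and 22.3 with peaks at or above the median score, 64.0 and 66.0 with links within 10 kb, and 53.7 and 55.0 within 1 kb. Signs changed at uncalled regions of Egfl7 (0.09, and -0.14 to 0.22 without each library), Lyve1 (0.04, but -0.02 without centring, -0.03 with the width class, and -0.03 to 0.11 without each library) and Csf1r (0.05, but -0.01 without centring, and -0.08 to 0.13 without each library).

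With the replicate number as a block, 4 marker regions were called higher and 9 lower (5417 and 7384 of all). Eng then joined the higher calls (limma adjusted p = 0.0304). Deviations of equally numbered libraries correlated at 0.146, -0.0322 and 0.234 across regions. The last, control 3 with dKO 3, was the highest of all, and control 1 correlated best with dKO 2 (0.157). Control 1, dKO 1 and dKO 2 share the 108 bp peak width, and control 3 and dKO 3 the 172 bp width. The check thus cannot tell pairing from peak width, and the numbers were not taken as pairs. Peaks are listed only above the caller's thresholds, so levels below them are not known.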
